A study of Mus musculus with 7 samples.

Results

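Hsf1, the transcription factor that switches on the heat shock response, and 9 heat shock genes were followed in mature white adipocytes of mice that lack or carry the fatty acid receptor FFA2. They were taken by gene symbol, 1 gene identifier for each symbol, so that 10 of the 57010 gene identifiers of the count table are described. They comprise Hsf1, the inducible HSP70 genes Hspa1a and Hspa1b, the constitutive HSP70 gene Hspa8, the HSP70 partners Hsph1, Dnajb1 and Bag3, the HSP90 genes Hsp90aa1 and Hsp90ab1, and the small heat shock protein gene Hspb1. The libraries came from 3 FFA2 fl/fl control mice, in which the receptor gene Ffar2 is flanked by loxP sites, and from 4 Adipoq-F2-KO mice, which carry the same floxed alleles together with a Cre transgene under the adiponectin promoter. All animals were male littermates of 20 weeks, kept on normal chow (the SC diet) without further treatment. The genotypes were co-housed from birth for the first part of this time. Adiponectin-Cre acts in adipocytes, so other cells of the fat pad keep Ffar2. Mature adipocytes were freed from perigonadal fat by collagenase digestion, and poly-A RNA was sequenced in bulk. In such bulk samples, fewer cells of a type and less RNA per cell cannot be told apart.

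Heat shock proteins are chaperones that hold, fold or hand on unfolded proteins. HSP70 proteins bind and release their clients with the help of J proteins, which start the cycle, and of nucleotide exchange factors, which end it, and HSP90 completes the folding of many kinases and receptors. At rest Hsf1 is held inactive by these chaperones, and when unfolded protein draws them away it forms trimers, binds repeats of the pentamer nGAAn and drives the inducible members. Heat, and also enzymatic tissue digestion, is known to induce Hspa1a, Hspa1b and Dnajb1, so these transcripts are often read as a measure of stress during cell isolation.

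Values below are TMM-normalised counts scaled to library size (CPM) unless TPM is named, and libraries are given in the order of their numbers, 1 to 3 for FFA2 fl/fl and 1 to 4 for Adipoq-F2-KO. Total counts lay between 30478997 and 39992605 a library, at which 0 counts would allow up to 0.150 to 0.197 CPM (3 fragments, each read as 2 counts, for counting error only). Ffar2 was at 37.5, 33.9 and 32.0 CPM in FFA2 fl/fl and at 1.68, 1.15, 1.33 and 2.58 CPM in Adipoq-F2-KO (log2 fold change -4.36, SE 0.22, edgeR adjusted p = 8.0e-06), in keeping with the labels. The 12 adipocyte markers were all present, led by Cfd, the adipocyte-secreted protease adipsin, at 9949 to 15474 CPM and the lipid-binding protein gene Fabp4 at 10076 to 13474 CPM. Markers of other cells were present too. The sum of 16 macrophage markers was 652 to 792 CPM in FFA2 fl/fl and 887 to 1072 CPM in Adipoq-F2-KO, that of 11 endothelial markers was 1179 to 1529 and 1620 to 2636 CPM, and that of 6 mural cell markers was 489 to 570 and 602 to 1022 CPM. Adipoq-F2-KO library 4 was the highest in these 3 sums. Of the 6 mural markers, 3 had a log2 fold change above 0 and 3 below it (median 0.01). The mural sum followed mainly its most abundant gene, Rgs5, at 241 to 332 CPM in FFA2 fl/fl and 394 to 807 CPM in Adipoq-F2-KO. Sums of fibroblast progenitor, neutrophil, mesothelial, erythroid and testis germ cell markers overlapped between genotypes. Genes of the mitochondrial chromosome took 4.41%, 5.77% and 4.98% of the counts in FFA2 fl/fl and 7.82%, 6.61%, 9.24% and 10.3% in Adipoq-F2-KO, so that this share, too, was above all controls in every Adipoq-F2-KO library, with library 4 again the highest. The part of these differences in the heat shock values was not tested.

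Promoter windows of 250 bases before to 50 bases after an annotated start were at hand for 6 of the 10 genes (RefSeq, GRCm38.p6), and those that hold paired heat shock pentamers are shown, since they set the inducible genes beside each other. Capitals mark GAANNTTC or TTCNNGAA, each of which is its own reverse complement, so that a match counts for both strands. Overlapping matches are merged in the capitals.
Hspa1a (chr17:34972107-34972406, minus strand): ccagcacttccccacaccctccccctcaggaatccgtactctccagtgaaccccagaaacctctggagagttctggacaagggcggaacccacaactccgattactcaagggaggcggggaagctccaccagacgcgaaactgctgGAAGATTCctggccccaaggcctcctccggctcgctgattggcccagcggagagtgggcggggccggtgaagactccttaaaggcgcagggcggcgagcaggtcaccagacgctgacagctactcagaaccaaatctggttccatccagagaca
Hspa1b (chr17:34959189-34959488, minus strand): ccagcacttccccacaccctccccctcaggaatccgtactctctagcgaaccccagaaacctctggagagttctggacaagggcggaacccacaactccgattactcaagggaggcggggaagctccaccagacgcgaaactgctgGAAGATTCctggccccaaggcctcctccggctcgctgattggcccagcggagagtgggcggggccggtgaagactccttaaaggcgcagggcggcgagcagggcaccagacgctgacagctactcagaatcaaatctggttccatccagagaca
Hsph1 (upstream window of 2, chr5:149636287-149636586, minus strand): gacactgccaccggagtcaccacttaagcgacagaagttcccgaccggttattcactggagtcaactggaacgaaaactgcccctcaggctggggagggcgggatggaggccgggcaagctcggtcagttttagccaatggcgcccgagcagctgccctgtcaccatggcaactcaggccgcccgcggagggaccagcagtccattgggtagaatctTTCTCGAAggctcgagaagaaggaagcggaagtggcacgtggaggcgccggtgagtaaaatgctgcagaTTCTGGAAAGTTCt
Bag3 (chr7:128523333-128523632, plus strand): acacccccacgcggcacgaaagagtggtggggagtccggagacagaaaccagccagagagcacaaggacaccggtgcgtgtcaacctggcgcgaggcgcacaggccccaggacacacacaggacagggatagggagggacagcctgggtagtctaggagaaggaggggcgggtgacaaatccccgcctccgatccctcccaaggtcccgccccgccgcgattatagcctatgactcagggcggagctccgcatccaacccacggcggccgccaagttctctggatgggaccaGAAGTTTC
Hspb1 (chr5:135887669-135887968, plus strand): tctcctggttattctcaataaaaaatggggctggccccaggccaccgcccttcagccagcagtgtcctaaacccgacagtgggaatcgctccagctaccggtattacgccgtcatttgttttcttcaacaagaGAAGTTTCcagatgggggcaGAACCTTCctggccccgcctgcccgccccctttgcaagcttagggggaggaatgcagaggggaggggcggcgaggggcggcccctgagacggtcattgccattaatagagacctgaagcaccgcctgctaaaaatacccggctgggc

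The windows of Hspa1a and Hspa1b were identical at 296 of 300 positions (98.7%), and each held its only match 104 to 97 bases before the start. Hspb1 held 2 matches upstream of its start, at -117 to -110 and at -97 to -90. In Bag3 the only match lay past the start, at +43 to +50. Hsph1 held a match at -33 to -26 and, at +37 to +49, an overlapping pair that makes a 3-pentamer run, TTCNNGAANNTTC. The 2 windows of Dnajb1 held none. A paired pentamer is common: 15.1% of all 32851 promoter windows held one, whereas 0.603% held a run of 3 (TTCNNGAANNTTC or GAANNTTCNNGAA). These matches describe letters in a window and say nothing of binding by Hsf1 in these cells.

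Per length, the constitutive genes Hsp90ab1 and Hspa8 were the highest, far above the inducible HSP70 genes Hspa1a and Hspa1b. Hsp90ab1 and Hspa8 led with median levels of 1137 and 1075 TPM over the 7 libraries, and together they made up 59.0% to 63.0% of the summed level of the 10 genes. Hspb1 (439 TPM), Bag3 (356 TPM), Dnajb1 (264 TPM) and Hsp90aa1 (259 TPM) formed a middle group. Hspa1b (39.4 TPM), Hspa1a (29.0 TPM), Hsph1 (17.4 TPM) and Hsf1 itself (13.1 TPM) were the lowest. Between neighbours in this order, the ranges over libraries separated only Hspa8 from Hspb1 and Hsp90aa1 from Hspa1b, and all other neighbours overlapped. The 10 genes together took 3306 to 3857 TPM, that is 0.331% to 0.386% of the length-scaled transcript total.

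To ask whether loss of FFA2 in adipocytes, or the handling of the cells that goes with it, was accompanied by a different heat shock state, each gene was compared between Adipoq-F2-KO and FFA2 fl/fl. All 10 genes passed the filter on low counts and none passed the edgeR test at an adjusted p of 0.05, against 1.02% of the 17039 genes tested. All Adipoq-F2-KO libraries lay above all controls for Bag3, as for 8.86% of all genes, and below all controls for Hsf1, as for 8.72% of all genes. These 2 of the 10 genes also had an unadjusted p under 0.05, a share close to the 17.9% of all genes. There were 6 genes with a log2 fold change above 0 and 4 below it, and the median over the 10 was 0.09, beside 0.0037 over all genes tested. With a library left out this median lay between 0.01 (without Adipoq-F2-KO library 3, with 5 genes on each side) and 0.18 (without FFA2 fl/fl library 2). The call depended on the test. DESeq2, which called 6.75% of the genes to which it gave an adjusted p, called Bag3. With edgeR run on every gene with at least 1 count, which called 4.92%, Bag3 and Hspa1a were called. In that fit the log2 fold change of Hspa1a stayed at 0.50. The SE of Hspa1a went from 0.27 to 0.15, and that of Hsf1 from 0.10 to 0.12. The calls of that fit thus rest less on the spread of each gene between libraries.

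**Figure D1:**
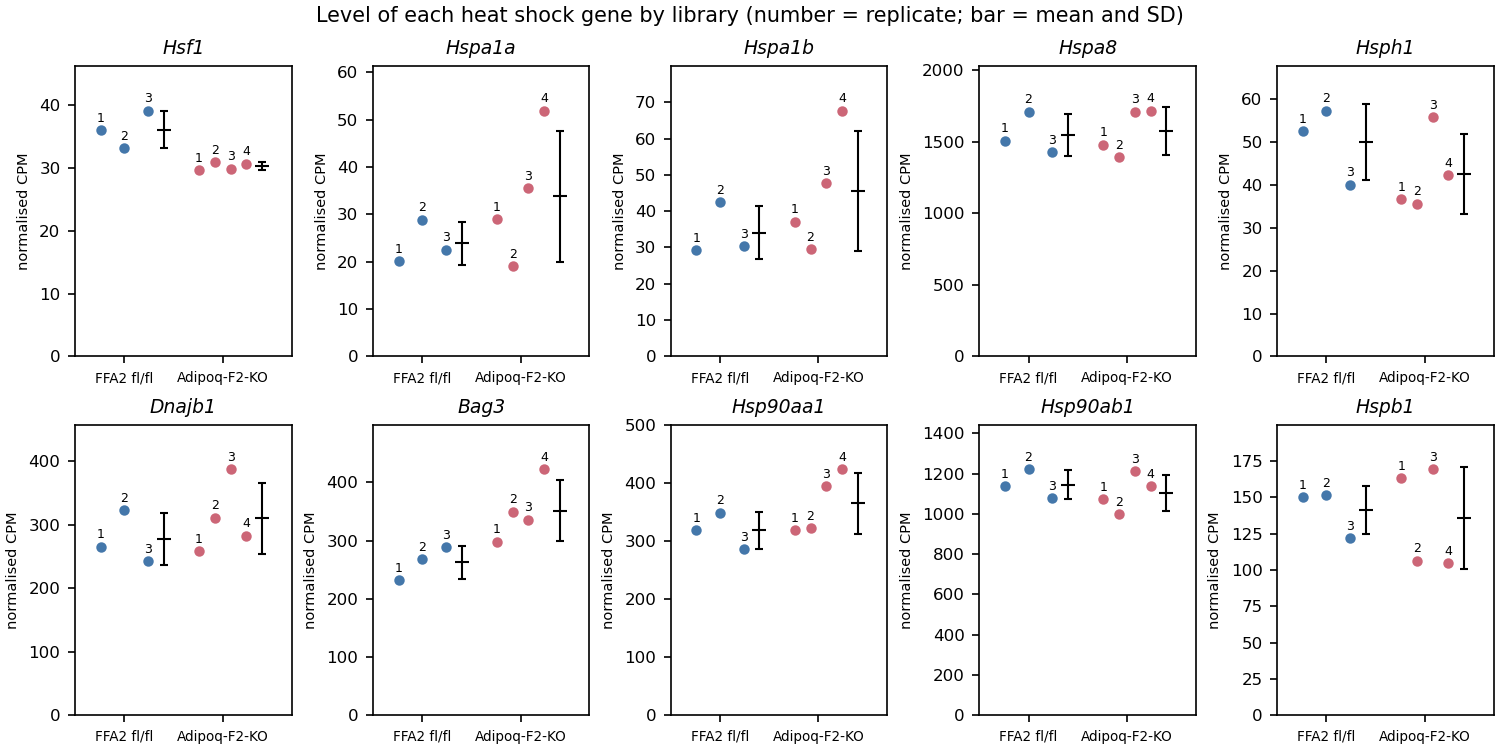
Level of Hsf1 and the 9 heat shock genes in each library, in normalised CPM on axes that start at 0. Points are libraries with their replicate number, and bars give the mean and SD of FFA2 fl/fl (n = 3) and Adipoq-F2-KO (n = 4). The 2 groups do not overlap for Hsf1 and Bag3, and for Hspa1a, Hspa1b, Hspa8, Bag3 and Hsp90aa1 the highest library is Adipoq-F2-KO 4.

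Hsf1 (ENSMUSG00000022556), the master regulator, was slightly lower in Adipoq-F2-KO without passing the test. It was at 36.1, 33.2 and 39.2 CPM in FFA2 fl/fl and at 29.7, 31.0, 29.9 and 30.7 CPM in Adipoq-F2-KO. The Adipoq-F2-KO libraries lay close together and under the lowest control. The means were 36.2 ± 2.99 (SD, n = 3) and 30.3 ± 0.605 CPM (SD, n = 4), and the log2 fold change was -0.25 (SE 0.10, 95% interval -0.46 to -0.04, edgeR adjusted p = 0.203). Hsf1 is switched on mainly by trimer formation and phosphorylation of the protein, which transcript counts do not show.

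The inducible HSP70 genes Hspa1a (ENSMUSG00000091971) and Hspa1b (ENSMUSG00000090877) varied more between libraries than between genotypes. They encode nearly the same protein and lie 9952 bases apart on the minus strand of chromosome 17. Hspa1a was at 20.1, 28.9 and 22.6 CPM in FFA2 fl/fl and at 29.0, 19.03, 35.6 and 52.0 CPM in Adipoq-F2-KO. Adipoq-F2-KO library 4 was the highest of the 7 and Adipoq-F2-KO library 2 the lowest, so the groups overlapped at both ends. The log2 fold change was 0.50 (SE 0.27, 95% interval -0.09 to 1.09, edgeR adjusted p = 0.353), and without Adipoq-F2-KO library 4 it was 0.22. Hspa1b was at 29.3, 42.4 and 30.4 CPM in FFA2 fl/fl and at 37.1, 29.5, 47.7 and 67.7 CPM in Adipoq-F2-KO. It followed the same order of libraries at the top, with Adipoq-F2-KO libraries 4 and 3 above all others. Its log2 fold change was 0.42 (SE 0.24, 95% interval -0.11 to 0.95, edgeR adjusted p = 0.394) and 0.16 without Adipoq-F2-KO library 4.

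Reads of these neighbours are hard to assign, since 38.1% of all 150-base stretches of Hspa1a transcript also occur in Hspa1b, and 40.5% the other way round. With their counts added, the pair was at 49.4, 71.3 and 52.9 CPM in FFA2 fl/fl and at 66.1, 48.5, 83.3 and 120 CPM in Adipoq-F2-KO. The sum gave a log2 fold change of 0.45 (edgeR adjusted p = 0.369), so the split between the copies did not decide the result. Hspa1a stayed at 0.610 to 0.736 of Hspa1b per length in every library. Hspa1a also shares 564 exon bases with the antisense gene Gm20481, which had 0 counts in all libraries.

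Hspa8 (ENSMUSG00000015656), the constitutive HSP70 that also strips clathrin from vesicles, was at nearly the same level in both genotypes. It was at 1507, 1710 and 1426 CPM in FFA2 fl/fl and at 1479, 1391, 1710 and 1719 CPM in Adipoq-F2-KO. Adipoq-F2-KO libraries 3 and 4 and FFA2 fl/fl library 2 were the high ones. The log2 fold change of 0.03 had an interval of -0.22 to 0.27 (SE 0.11, edgeR adjusted p = 0.933), and its sign turned with the libraries included.

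Of the HSP70 partners, Bag3 was the member that stood out most. Bag3 (ENSMUSG00000030847) is a nucleotide exchange factor that links HSP70 and small heat shock proteins to selective autophagy. It was at 231, 268 and 289 CPM in FFA2 fl/fl and at 298, 350, 336 and 423 CPM in Adipoq-F2-KO. The highest control and the lowest Adipoq-F2-KO library were near each other, and Adipoq-F2-KO library 4 was highest. The means of 263 ± 28.9 (SD, n = 3) and 352 ± 52.1 CPM (SD, n = 4) gave a log2 fold change of 0.42 (SE 0.13, 95% interval 0.14 to 0.70), with an edgeR adjusted p of 0.124. DESeq2 gave 0.43 with an adjusted p of 0.0255. With edgeR on every gene with at least 1 count, under the limit given above, the adjusted p was 0.0177. Over all alternatives the adjusted p ran from 0.0177 to 0.410 and the log2 fold change from 0.32 to 0.50. Markers of vessels and macrophages moved the same way: 11 of 11 endothelial markers and 14 of 16 macrophage markers had a log2 fold change above 0, none of them was at 0 in all libraries, and neither sum overlapped between genotypes. Their part in the Bag3 values was not tested.

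Dnajb1 (ENSMUSG00000005483), the J protein that hands unfolded clients to inducible HSP70, overlapped between genotypes. It was at 265, 322 and 243 CPM in FFA2 fl/fl and at 259, 311, 387 and 282 CPM in Adipoq-F2-KO. Adipoq-F2-KO library 3, not library 4, was the highest. The log2 fold change was 0.16 (SE 0.14, 95% interval -0.15 to 0.48, edgeR adjusted p = 0.591). It was 0.04 without Adipoq-F2-KO library 3, 0.09 without FFA2 fl/fl library 3 and 0.29 without FFA2 fl/fl library 2.

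Hsph1 (ENSMUSG00000029657), which encodes the HSP110 exchange factor, leaned the other way. It was at 52.5, 57.3 and 40.0 CPM in FFA2 fl/fl and at 36.7, 35.6, 55.8 and 42.2 CPM in Adipoq-F2-KO. Adipoq-F2-KO library 3 lay among the controls and the other Adipoq-F2-KO libraries were near or under the lowest control. The log2 fold change was -0.23 (SE 0.17, 95% interval -0.60 to 0.14, edgeR adjusted p = 0.506), and it was -0.12 when FFA2 fl/fl library 2 was left out and -0.39 when Adipoq-F2-KO library 3 was.

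The inducible and the constitutive HSP90 gene differed little between genotypes. Hsp90aa1 (ENSMUSG00000021270), the stress-inducible form, was at 319, 349 and 287 CPM in FFA2 fl/fl and at 319, 322, 395 and 424 CPM in Adipoq-F2-KO. Only Adipoq-F2-KO libraries 3 and 4 exceeded the highest control, and the log2 fold change was 0.20 (SE 0.12, 95% interval -0.07 to 0.47, edgeR adjusted p = 0.432). Hsp90ab1 (ENSMUSG00000023944), the constitutive form, was at 1138, 1222 and 1079 CPM in FFA2 fl/fl and at 1074, 999, 1211 and 1138 CPM in Adipoq-F2-KO. The groups overlapped almost fully, with a log2 fold change of -0.05 (SE 0.10, 95% interval -0.27 to 0.16, edgeR adjusted p = 0.820).

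Hspb1 (ENSMUSG00000004951), a small heat shock protein that binds unfolded proteins without ATP and steadies actin filaments, split the Adipoq-F2-KO libraries. It was at 150, 152 and 122 CPM in FFA2 fl/fl and at 163, 106, 169 and 104 CPM in Adipoq-F2-KO. Libraries 1 and 3 of Adipoq-F2-KO were above all controls and libraries 2 and 4 below them. The log2 fold change of -0.06 (SE 0.18, 95% interval -0.44 to 0.33, edgeR adjusted p = 0.901) thus averaged over unlike libraries.

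**Figure D2:**
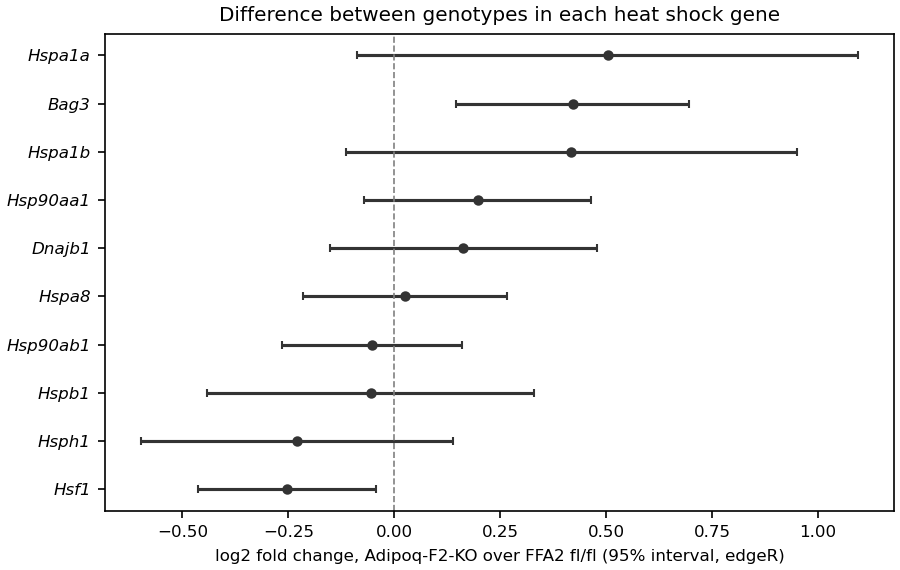
Log2 fold change of Adipoq-F2-KO over FFA2 fl/fl for the 10 genes, with edgeR's 95% interval before any adjustment over genes. The intervals of Bag3 (0.14 to 0.70) and Hsf1 (-0.46 to -0.04) leave out 0, and those of the other 8 genes hold it.

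The precision differed among the genes. The intervals of Hspa8, Hsp90ab1 and Hsp90aa1 kept the log2 difference within -0.27 to 0.47, whereas those of Hspa1a and Hspa1b reached from -0.11 up to 1.09. For Hspa1a the interval did not exclude levels of up to 2.13-fold those of controls.

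Library by library, the inducible genes did not rise as a block in Adipoq-F2-KO. Among the 4 Adipoq-F2-KO libraries, library 4 was highest in 5 of the 10 genes, library 3 in 4 and library 2 in 1, while library 2 was lowest in 5 and library 1 in 4. Among controls, library 2 was highest in 8 genes and library 3 lowest in 6. A profile made from the mean standardised level of the 7 inducible genes was highest in Adipoq-F2-KO libraries 3 (0.97) and 4 (0.70), next in FFA2 fl/fl library 2 (0.31), and below 0 in the remaining 4 libraries, among them Adipoq-F2-KO 1 (-0.23) and 2 (-0.54). The 7 genes were Hspa1a, Hspa1b, Hsph1, Dnajb1, Bag3, Hsp90aa1 and Hspb1.

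**Figure D3:**
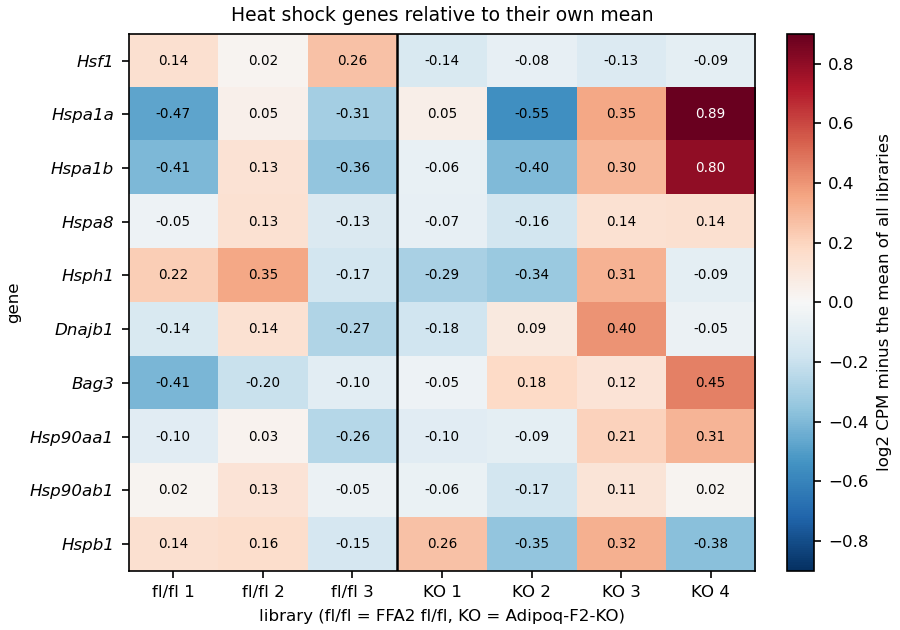
Log2 CPM of each gene minus its mean over the 7 libraries, with controls left of the line. Adipoq-F2-KO library 4 is highest for Hspa1a (0.89) and Hspa1b (0.80), library 3 for Dnajb1 (0.40), and library 2 lies below 0 for all genes but Dnajb1 and Bag3.

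The 7 genes did not follow this profile alike, although each is part of it. Pearson r over the 7 libraries was 0.24 for Hspb1, 0.49 for Bag3, 0.54 for Hsph1 and 0.72 for Dnajb1. It was 0.85 for Hspa1a, 0.88 for Hspa1b and 0.94 for Hsp90aa1. Hspa8, which is not among the 7, also followed the profile closely (r = 0.93), as did Hsp90ab1 to a lesser degree (r = 0.73), whereas Hsf1 ran against it (r = -0.61). Among 8378 genes outside the heat shock and cell isolation lists with a mean of at least 10 CPM, those most like the profile were 2610001J05Rik (r = 0.97), the ribosomal protein gene Rps20 (0.94), the glycosyltransferase gene Galnt18 (0.94), the placental growth factor gene Pgf (0.93) and the stomatin gene Stom (0.93). With 7 points chosen from so many genes, these values are a description only, and the points share depth and makeup of each library.

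Ratios within a library set aside its overall level. Per length, Hsp90ab1 was 4.67, 4.59 and 4.94 times Hsp90aa1 in FFA2 fl/fl and 4.41, 4.07, 4.02 and 3.52 times in Adipoq-F2-KO. Every Adipoq-F2-KO library was below every control, with means of 4.73 ± 0.183 (SD, n = 3) and 4.00 ± 0.370 (SD, n = 4). Dnajb1 over Hsph1 was 11.5, 12.7 and 13.7 in FFA2 fl/fl and 16.0, 19.8, 15.7 and 15.2 in Adipoq-F2-KO, again without overlap. Bag3 over Hsf1 was 17.8, 22.4 and 20.4 in FFA2 fl/fl and 27.8, 31.3, 31.1 and 38.1 in Adipoq-F2-KO, which follows from the separate levels of both genes. The ratio of Hspa8 to Hspa1a plus Hspa1b, a comparison of constitutive with inducible HSP70, was 20.3, 16.0 and 17.99 in FFA2 fl/fl and 15.0, 19.1, 13.7 and 9.59 in Adipoq-F2-KO, and overlapped. Bag3 over Hsph1 and Bag3 over Hspb1 overlapped as well. These ratios were picked after the levels had been seen and were not tested.

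**Figure D4:**
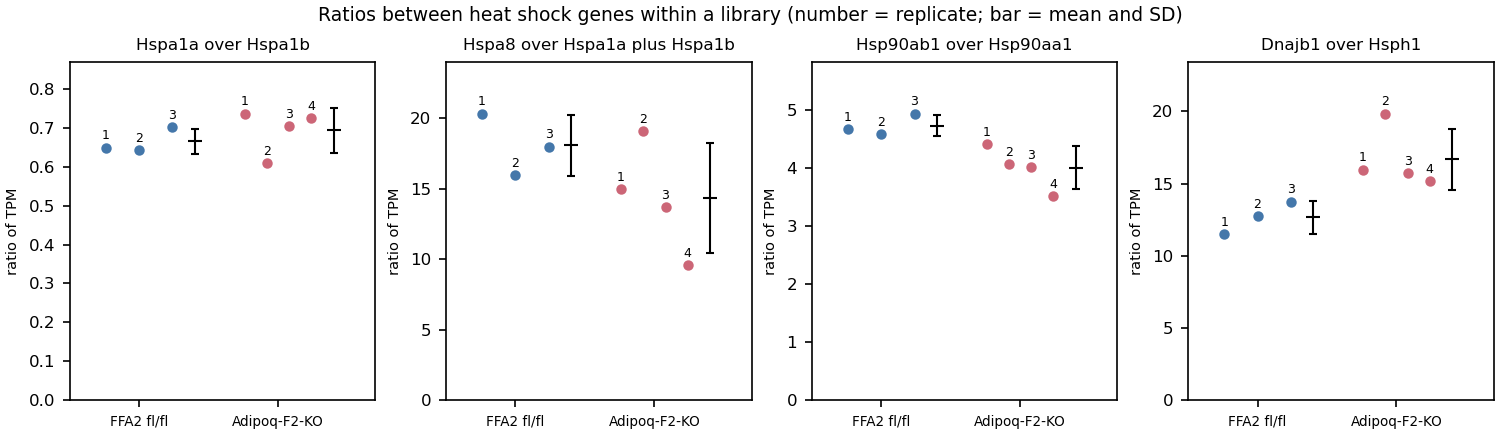
Ratios of TPM between heat shock genes in each library, with mean and SD of FFA2 fl/fl (n = 3) and Adipoq-F2-KO (n = 4), on axes that start at 0. The ratio of Hsp90ab1 to Hsp90aa1 is lower in all Adipoq-F2-KO libraries (3.52 to 4.41) than in controls (4.59 to 4.94), that of Dnajb1 to Hsph1 is higher (15.2 to 19.8 against 11.5 to 13.7), and the other 2 ratios drawn overlap.

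The other genes of the pathway, 112 in all, were mostly at slightly lower levels in Adipoq-F2-KO. Of the 103 that were tested, 77 had a log2 fold change below 0 and 26 above it, with a median of -0.10, beside 0.0037 for all genes tested, of which 49.5% were below 0. Over all normalisations, filters and left-out libraries, 71 to 77 were below 0 and the median stayed between -0.12 and -0.07. Only 1 of the 103 passed the edgeR test, and it was higher, which is near the 1.02% of all genes. At an unadjusted p under 0.05 there were 5 higher and 16 lower, a share near the 17.9% of all genes. All Adipoq-F2-KO libraries lay above all controls for 4 of the 103, beside 8.86% of all genes. They lay below all controls for 19, beside 8.72% of all genes. Adipocyte markers leaned the same way as these genes, 11 of 12 below 0 with a median of -0.26 (-0.13 without Adipoq-F2-KO library 4) and sums of 50587 to 56375 CPM in FFA2 fl/fl and 39631 to 51632 CPM in Adipoq-F2-KO, and none was at 0. Whether the makeup of the samples had a part in the lower chaperone levels was not tested.

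The gene that passed was Hsf2 (ENSMUSG00000019878), a paralogue of Hsf1 that binds the same elements and forms mixed trimers with it. Hsf2 was at 7.39, 8.34 and 7.14 CPM in FFA2 fl/fl and at 12.2, 13.8, 12.3 and 11.7 CPM in Adipoq-F2-KO. The groups were well apart, and the spread within each was small. The means were 7.62 ± 0.630 (SD, n = 3) and 12.5 ± 0.914 CPM (SD, n = 4), and the log2 fold change was 0.72 (SE 0.14, edgeR adjusted p = 0.0411). Hsf2 stayed called in 9 of 15 alternatives, among them DESeq2 (adjusted p = 0.000584) and limma (0.0466). The gene stayed called, too, with replicate number as a block (0.0460), a fit to which Adipoq-F2-KO library 4 adds nothing on genotype. It was lost when a control or Adipoq-F2-KO library 1, 2 or 3 was left out, with adjusted p-values from 0.0574 to 0.207 and log2 fold changes still at 0.67 to 0.78. Each Adipoq-F2-KO library thus held less Hsf1 and more Hsf2 than each control, and of these only Hsf2 passed. Of the other factors, Hsf4 and the inhibitor gene Hsbp1 did not pass, with log2 fold changes of -0.30 and -0.06 (edgeR adjusted p = 0.646 and 0.747).

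Among the other HSP70 genes, 9 of 10 tested had a log2 fold change below 0 (7 to 9 over all alternatives) and none passed. Hspa9, the mitochondrial HSP70, was at -0.24 (SE 0.09, edgeR adjusted p = 0.179) and Hyou1, a large HSP70 of the endoplasmic reticulum, at -0.26 (SE 0.09, edgeR adjusted p = 0.168). Both lay below all controls in every Adipoq-F2-KO library, as did 8.72% of all genes. The exception was Hspa5, the main chaperone of the endoplasmic reticulum, at 0.22 (SE 0.10, edgeR adjusted p = 0.296).

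Of 39 other J proteins tested, 13 were above and 26 below 0, and none passed. Dnajb4, a close relative of Dnajb1, was at 119, 123 and 125 CPM in FFA2 fl/fl and at 134, 178, 186 and 155 CPM in Adipoq-F2-KO, without overlap (log2 fold change 0.42, SE 0.11, edgeR adjusted p = 0.104). Dnajc11, a mitochondrial J protein gene, was at -0.40 (SE 0.10, edgeR adjusted p = 0.0785) and Dnajb14 at -0.24 (SE 0.09, edgeR adjusted p = 0.184). Of the 39, DESeq2 called only Dnajb4, as higher, and Dnajc11, as lower, beside 6.75% of all genes to which it gave an adjusted p. Without Adipoq-F2-KO library 1, Dnajb4 was at 0.50 and passed (edgeR adjusted p = 0.0472).

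The summed levels of the exchange factors and of the HSP90 co-chaperones lay below all controls in each Adipoq-F2-KO library, whereas the sums of the other factors, HSP70 genes, J proteins, small heat shock proteins, chaperonins and Hsf1 targets overlapped between genotypes. The 11 other exchange factors and cofactors summed to 1175 to 1223 CPM in FFA2 fl/fl and to 895 to 1127 CPM in Adipoq-F2-KO, with 7 of 11 genes below 0 and a median log2 fold change of -0.17. Bag1, an exchange factor of the family of Bag3, was at -0.30 (SE 0.12, edgeR adjusted p = 0.213), and Hspbp1 at -0.37 (SE 0.16, edgeR adjusted p = 0.262). The HSP90 family and co-chaperones summed to 1329 to 1443 CPM in FFA2 fl/fl and to 1112 to 1297 CPM in Adipoq-F2-KO, with 14 of 18 genes below 0 and a median of -0.17. The immunophilins of steroid receptor complexes, Fkbp4 and Fkbp5, were at -0.33 and -0.71 (edgeR adjusted p = 0.171 and 0.143). Without FFA2 fl/fl library 2, Fkbp5 was at -0.98 and passed (edgeR adjusted p = 0.0415), and without library 3 it was at -0.47. Nudc was at -0.43 (edgeR adjusted p = 0.192). As single genes, 3 of the 11 and 4 of the 18 lay below all controls in each Adipoq-F2-KO library, beside 8.72% of all genes. In both lists 0 genes lay above all controls, beside 8.86% of all genes.

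The 10 chaperonin genes, which encode the folding chambers of the cytosol and mitochondria, were all below 0 (9 or 10 of 10 over all alternatives), with log2 fold changes from -0.18 to -0.03 and none at an unadjusted p under 0.05. Cct7, a subunit of the cytosolic chamber, had the lowest p of these, at -0.18 (SE 0.10, edgeR adjusted p = 0.348), ahead of Cct6a and Cct8. Of 7 other small heat shock proteins tested, 5 were below 0 and none passed. Without Adipoq-F2-KO library 4, and with the replicate block, 3 were below 0 and 4 above it. Hspb8, which works in a complex with Bag3, was at 217 to 253 CPM in FFA2 fl/fl and at 174 to 215 CPM in Adipoq-F2-KO, so it was lower where Bag3 was higher (log2 fold change -0.27, SE 0.10, edgeR adjusted p = 0.199). Hspb7 was at -0.71 (edgeR adjusted p = 0.196), and at -0.30 without FFA2 fl/fl library 1, where it was highest (211 CPM). Hspb9, a testis form, reached 4.25 CPM in Adipoq-F2-KO library 2 and stayed below 1 CPM elsewhere, and in that library 7 testis germ cell markers summed to 145 CPM, against 0.498 to 14.9 CPM in the others.

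Of 22 further genes known as Hsf1 targets, 6 were above and 16 below 0, and none passed the edgeR test. Zfand2a, an arsenite- and heat-inducible zinc finger gene, was at 45.5, 39.4 and 37.6 CPM in FFA2 fl/fl and at 50.7, 51.1, 50.2 and 58.7 CPM in Adipoq-F2-KO, higher without overlap (log2 fold change 0.37, SE 0.10, edgeR adjusted p = 0.110). DESeq2 called 2 of the 22, Dnajb4 and Zfand2a, both higher, beside 6.75% of all genes to which it gave an adjusted p. Of the 22, 2 (Dnajb4 and Zfand2a) lay above all controls in each Adipoq-F2-KO library, beside 8.86% of all genes. A further 3, among them Fkbp4 and Hspb8, lay below all controls, beside 8.72% of all genes. Bag3, outside this list, was above all controls too, while Hspa1a, Hspa1b, Dnajb1 and Hsp90aa1 overlapped.

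**Figure D5:**
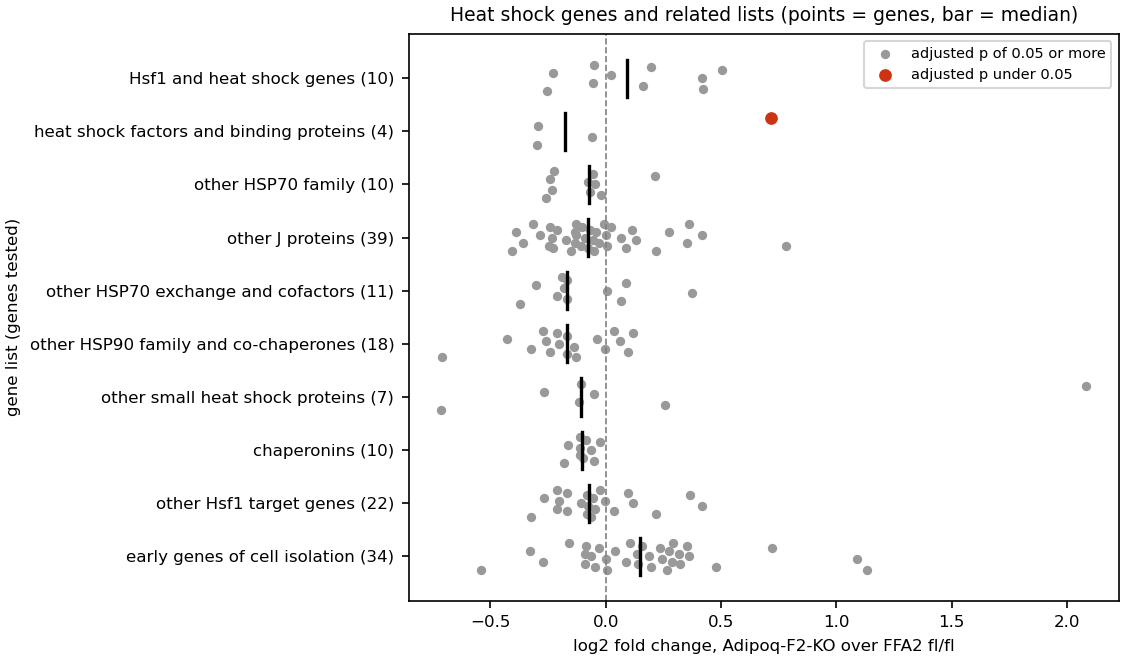
Log2 fold change of Adipoq-F2-KO over FFA2 fl/fl for each tested gene of Hsf1 and the heat shock genes and of the related lists, with bars at the list medians. Hsf2, at 0.72, is the only gene with an edgeR adjusted p under 0.05. The medians of the chaperone lists lie below 0 and that of the early isolation genes lies above it, at 0.15.

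Genes that respond early to tissue dissociation were compared as a second measure of handling. Of 34 such genes, all tested, 24 were above and 10 below 0, with a median log2 fold change of 0.15. None passed the edgeR test. An unadjusted edgeR p under 0.05 was seen in 13 of the 34, 12 higher and 1 lower, a larger share than the 17.9% of all genes. All Adipoq-F2-KO libraries lay above all controls for 6 of the 34, against 8.86% of all genes. They lay below all controls for 1, against 8.72% of all genes. Macrophage and endothelial marker sums and the mitochondrial share, given above, were also above all controls in every Adipoq-F2-KO library. So was the mural sum, although only 3 of its 6 markers had a log2 fold change above 0. The part of these sums and of the mitochondrial share in these values was not tested. The immediate early genes that lead this response had log2 fold changes of -0.09 (Fos), -0.33 (Jun), 0.0016 (Egr1, whose sign turned in 6 of 15 alternatives) and 0.27 (Atf3). Fos was at 1015 to 1507 CPM in FFA2 fl/fl and 1123 to 1308 CPM in Adipoq-F2-KO, Jun at 1152 to 1546 and 787 to 1210 CPM, Egr1 at 3013 to 3535 and 2943 to 3714 CPM, and Atf3 at 338 to 439 and 387 to 509 CPM, each with overlap. Fosl1, an AP-1 subunit, was higher without overlap, at 9.26, 18.8 and 18.4 CPM in FFA2 fl/fl and 26.2, 31.2, 36.0 and 38.2 CPM in Adipoq-F2-KO (log2 fold change 1.09, SE 0.23, edgeR adjusted p = 0.0505). Nr4a3, an orphan nuclear receptor gene, was at 1.13 (SE 0.30, edgeR adjusted p = 0.0959) with Adipoq-F2-KO library 4 at 127 CPM. Without that library Nr4a3 was at 0.71 and passed (edgeR adjusted p = 0.0443). Fosl1 passed in 7 of 15 alternatives. Among them were DESeq2 (adjusted p = 0.000222), limma (0.0376), edgeR with the replicate block (0.0192) and edgeR without Adipoq-F2-KO library 1 (0.0472). Klf2, a factor of endothelial and immune cells, was lower at -0.54 (SE 0.13, edgeR adjusted p = 0.0786). DESeq2 called 5 of the 34, against 6.75% of all genes. Of the 4 leading genes, Atf3 followed the inducible heat shock profile over the 7 libraries (r = 0.78), and Fos (0.11), Egr1 (0.10) and Jun (-0.29) did not.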

How the data were processed

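RNA of mature adipocytes was measured in 7 libraries (3 FFA2 fl/fl, 4 Adipoq-F2-KO), grouped by their labels. Per the labels, libraries were made with a stranded poly-A kit and read as pairs of 150 bases. The submitters' processing notes name Trimmomatic for trimming, STAR for alignment, featureCounts for gene counting, and DESeq2. Versions, strand and overlap options were not given in the sources used here. The deposited counts are whole numbers without normalisation, and the deposited exon lengths served for TPM. The notes name GRCm38 (mm10), but the table's gene coordinates differ from that build, so coordinates are given only for promoters (RefSeq, GRCm38.p6). Among counts of 1 to 49, 85.5% to 88.8% were even, so both mates appear to have been counted. Counts of overlapping or near-identical genes are uncertain. Gene symbols were matched for 52029 of 57010 identifiers.

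Genes were filtered with filterByExpr, scaled with TMM (factors 0.968 to 1.02) and tested two-sided with the quasi-likelihood test of edgeR 4.0.16 in R 4.3.3, with genotype as the only term and Benjamini-Hochberg adjustment over the 17039 genes tested. DESeq2 1.42.0, limma 3.58.1 (voom), other scalings, filters, a replicate block, left-out libraries and the summed Hspa1a and Hspa1b were alternatives. The scripts were tested on simulated data. Levels are normalised CPM and SDs are between libraries. The p-values set a difference against the spread between these libraries, less directly in the fit on every gene with at least 1 count. No batch or date was given. All genes described, and the lists of related genes and markers, were chosen with earlier results of these data known. Named genes were all members, the 3 genes of lowest p in each related list, Fos, Jun, Egr1 and Atf3, and the most abundant markers. Libraries of a genotype differed by more than sampling noise in every pair (chi-square over degrees of freedom 41.5 to 165). All sample columns were used.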

Additional observations from a re-analysis of the deposited data

How the results depend on the processing

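None of the 10 genes was called by edgeR under the other scalings, the filter of at least 1 CPM in 3 libraries, limma, the replicate block or any left-out library. DESeq2 called 1 of them (Bag3) and edgeR on every gene with at least 1 count called 2 (Bag3 and Hspa1a). Over all genes, 173 calls became 992 with DESeq2, 1403 with every gene of at least 1 count, 272 with at least 1 CPM in 3 libraries and 224 with the replicate block, and 1 to 178 when a library was left out (1, 41 and 5 without FFA2 fl/fl library 1, 2 and 3, and 11 and 20 when Adipoq-F2-KO library 2 or 3 was dropped). In the other heat shock and chaperone lists, 1 call became 4 with DESeq2 and 7 with every gene of at least 1 count. It became 0 to 1 when a library was left out (0 without FFA2 fl/fl library 1 or 3 or Adipoq-F2-KO library 2 or 3). Without FFA2 fl/fl library 2 the call was Fkbp5, lower (edgeR adjusted p = 0.0415), not Hsf2. Without Adipoq-F2-KO library 1 it was Dnajb4, higher (edgeR adjusted p = 0.0472), not Hsf2. The cause of these shifts was not tested.

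Hspa8 and Hspb1, both near 0, changed sign. With the replicate block Hspa8 was at -0.0211 and Hspb1 at 0.0285, and with a library left out they ran from -0.0195 to 0.1016 and from -0.1793 to 0.0516. Egr1 was at -0.0013 with limma, -0.0022 with every gene of at least 1 count, -0.0613 with the block and -0.0591 to 0.0539 with a library left out. Fabp4 was at 0.0031 with at least 1 CPM in 3 libraries, 0.0526 with the block and -0.0871 to 0.0546 with a library left out. Fos ran from -0.2201 to 0.0424 and the neutrophil marker S100a8 from -0.3560 to 0.0374 with a library left out. With the block, the log2 fold changes of Hspa1a and Hspa1b were 0.20 and 0.16, and that of Bag3 0.32 (adjusted p = 0.114). Number 4 occurs only in Adipoq-F2-KO, so the block fit took nothing on genotype from that library. Without Adipoq-F2-KO library 4 the 3 values were 0.22, 0.16 and 0.32. Same-numbered libraries did not deviate together (r = -0.02 to 0.03 over 3 pairs), so the numbers were not taken to pair animals. No other member changed sign or side of the threshold. With 3 and 4 libraries, a common biological coefficient of variation of 0.258 limits what can be seen more than depth does, since each of the 10 genes had over 600 counts in every library.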
